A study of Homo sapiens with 3 samples.

Results

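The translation elongation factors are the proteins that carry aminoacyl-tRNA to the ribosome and move the ribosome along the mRNA, and 10 of their genes were chosen by name: EEF1A1, EEF1B2, EEF1D, EEF1G, EEF1E1, EEF2, EEF2K, TUFM, TSFM and GFM1. Of these 10, 8 were listed in every library, among 8812 transcripts listed in all of them. TSFM and GFM1, which code for the exchange factor and a translocase of the mitochondrial ribosome, were listed in no library, and their values are not analysed here. The data are ribosome profiling libraries of HEK293T, a line made from human embryonic kidney cells that carries the SV40 large T antigen. Ribosome profiling counts the mRNA pieces that ribosomes shield from nuclease (ribosome-protected fragments, RPFs). The untreated group had 2 libraries, Untreated A and Untreated B, without drug (0 µg/mL), and the G418 group had 1 library, G418 A, from cells kept for 24 h with 500 µg/mL of G418. The study calls its libraries biological replicates, and the labels do not add how the cultures were kept apart. With 1 library of treated cells, no test between conditions was made and no p-value is given, and every difference between G418 A and the untreated libraries lacks a replicate check.

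In the cytosol, eEF1A (EEF1A1) brings aminoacyl-tRNA to the A site in its GTP form. The eEF1B complex recharges it with GTP, with EEF1B2 and EEF1D as the exchange subunits and EEF1G as the structural subunit. eEF2 (EEF2) drives translocation and is slowed when the kinase EEF2K phosphorylates it. EEF1E1, also called AIMP3, is a small scaffold of the multisynthetase complex with sequence similarity to EEF1G. TUFM is the mitochondrial counterpart of eEF1A. G418 is an aminoglycoside that binds the decoding centre of the ribosome and lets near-cognate tRNA be accepted, also at stop codons. The mRNAs of many of these factors, like those of ribosomal proteins, begin with a run of pyrimidines known as a TOP motif, through which mTOR signalling controls their translation.

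The sequences below show the stop codons past which readthrough was measured, in capitals, with 15 bases before and 12 after, read on the coding strand of hg38. They are given because the base after the stop codon completes the stop signal by which transcripts were grouped, for example UGAA.
EEF1A1, chr6:73517798-73517827, minus strand: gctcagaaggctaaaTGAatattatcccta
EEF1G, chr11:62559667-62559696, minus strand: ggcaagatcttcaagTGAacatctcttgcc
EEF2, chr19:3976542-3976571, minus strand: ttcctggacaaattgTAGgcggcccttcct
EEF1B2, chr2:206162866-206162895, plus strand: gctttcaacaagatcTAAaatccatcctgg
TUFM, chr16:28842963-28842992, minus strand: aatatcaaatggggtTGAgtgtgcagatct
Each of these stop codons lies in the last exon of its transcript and is the stop codon of the main isoform (MANE Select, GENCODE 44). Of the 2 genes in which it is not, EEF1D was represented by ENST00000532400.1, a transcript of 99 codons. Only 92 of its 297 coding bases are read in the frame of the main isoform, 198 are read in another frame, and its stop codon lies 7 nt from that of the main isoform. The EEF1D values therefore count RPFs on the shared 3′ part of the gene, in which the 2 reading frames cannot be told apart. EEF1E1 was represented by ENST00000429723.6, of 139 codons where the main isoform has 174, and its stop codon lies in an exon that the main isoform lacks.

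The depth, as the number of reads behind the scale of RPM (read numbers brought to a shared library size), ranged from 5857230 to 9477972. RPFs on the coding sequences (CDS) of the 8 listed factors made up 1.21% and 1.19% of the RPFs on listed CDS in the untreated libraries (A and B) and 0.940% in the G418 library. Counts over all transcripts below refer to the 5684 that passed a minimum on the mean number of CDS reads over the libraries. Of the factors, 7 passed this minimum and EEF2K, with a mean of 83.3 reads, was below it. Of 9 genes known to be expressed in HEK293T cells, 7 were listed (PAX2 and CDH2 were not), and of 8 markers of other cell types 2 were (EPCAM and COL1A1). Their summed density was 310.1, 280.8 and 354.3 RPKM, in the order Untreated A, Untreated B, G418 A, and that of the HEK293T genes 2904, 3066 and 2291 RPKM. Of the 6 HEK293T genes with enough reads, 5 were below both untreated libraries in G418 A, against 27.9% of all transcripts with enough reads, and the part of this in the results below was not tested.

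Repeated sequence bears on the values of several factors. For the CDS of EEF1A1, 99.0% of all windows of 28 nt, the shortest fragment length that was counted, have an exact copy elsewhere in hg38, with up to 16 copies. The share was 87.7% for EEF1B2, 85.9% for EEF1G and 66.7% for the listed EEF1D transcript. It was 12.7% for TUFM and 12.5% for EEF1E1. No window of EEF2, EEF2K or EEF1A2, the paralogue of EEF1A1, has such a copy. A read that matched several places was credited to its primary alignment alone, so that densities of EEF1A1, EEF1B2, EEF1G and EEF1D are uncertain to an extent that was not tested. Those of EEF2, EEF2K and EEF1A2 rest on unique sequence.

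**Figure D1:**
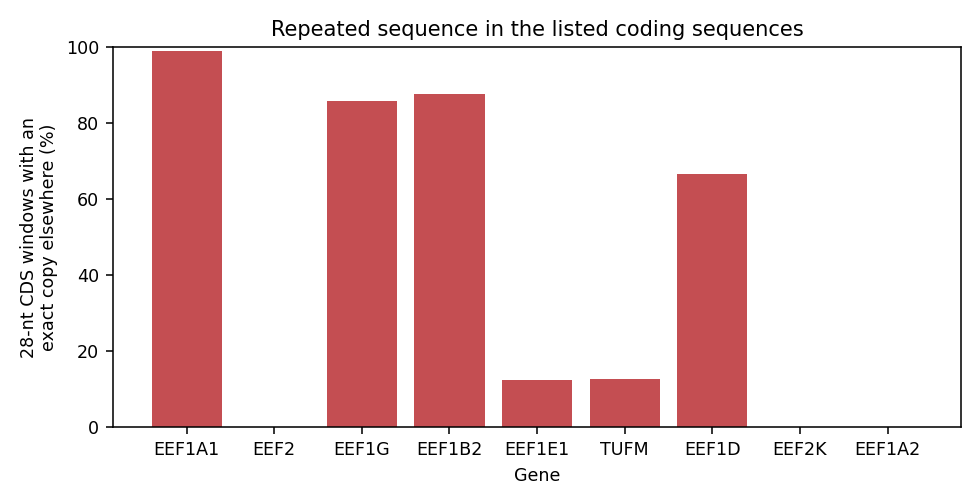
Share of 28-nt windows of each listed CDS that occur again, letter for letter, elsewhere in the genome, in percent. EEF1A1 stands at 99.0%, EEF1B2, EEF1G and EEF1D between 66.7 and 87.7%, and EEF2, EEF2K and EEF1A2 (the last bar) at 0.

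The comparison of CDS densities asked whether cells kept with G418 carried more or fewer ribosomes on the elongation factor mRNAs. Densities are in RPKM, RPM per kilobase of the counted CDS, and changes are the log2 of G418 A over the mean of the untreated libraries. RPFs reflect both the amount of mRNA and its translation, which cannot be told apart here. EEF1A1 was the factor that differed most. Its density was 2576 RPKM in Untreated A (20463 reads), 2406 in Untreated B (30925 reads) and 1385 in G418 A (13548 reads), against an untreated mean of 2491 ± 120 (SD, n = 2). G418 A was below both untreated libraries, 1.80-fold below their mean (log2 change −0.85), while the untreated libraries differed by 1.07-fold. Among 5684 transcripts the change of EEF1A1 was the 13th lowest. Among the 100 transcripts with the highest untreated densities, where the median change was −0.13, it was the 5th lowest.

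EEF1A2, the paralogue that replaces EEF1A1 in neurons and muscle, stood next to it in that order, 12th lowest, with a log2 change of −0.87. It had 73.4 RPKM in Untreated A (584 reads), 93.8 in Untreated B (1208 reads) and 45.7 in G418 A (448 reads), so that G418 A was 1.83-fold below the untreated mean of 83.6 ± 14.4 RPKM (SD, n = 2). The untreated libraries differed more for EEF1A2 than for EEF1A1, by a log2 of 0.35, and G418 A was below both. The EEF1A1 density was 35.1 times that of EEF1A2 in Untreated A, 25.7 times in Untreated B and 30.3 times in G418 A. EEF1A2 was no member of the chosen list and came from a list of paralogues and specialised GTPases, in which it alone passed 1.5-fold.

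EEF2 differed little. It had 1097 RPKM in Untreated A (16342 reads), 1183 in Untreated B (28514 reads) and 1068 in G418 A (19615 reads). G418 A was the lowest of the libraries, but its log2 difference from the untreated mean, −0.09, was smaller in size than the log2 difference between the untreated libraries, 0.11. The 2 factors of highest density stood closer together in G418 A. The EEF1A1 density was 2.35 and 2.03 times that of EEF2 in the untreated libraries and 1.30 times in G418 A.

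Of the eEF1B subunits, EEF1G and EEF1B2 had slightly higher densities in G418 A, where that of EEF1A1 was lower. EEF1G had 607 RPKM in Untreated A (4552 reads), 582 in Untreated B (7069 reads) and 656 in G418 A (6062 reads). Its log2 change was 0.14, and the log2 of Untreated B over Untreated A was −0.06. EEF1B2 had 502 RPKM in each untreated library (1898 and 3066 reads) and 518 in G418 A (2409 reads), a log2 change of 0.04 that turned to −0.03 when libraries were scaled by TMM or median of ratios. In G418 A both subunits were slightly above both untreated libraries on the deposited scale. The EEF1G density was 1.21 and 1.16 times that of EEF1B2 in the untreated libraries and 1.27 times in G418 A, whereas EEF1A1 stood at 4.25 and 4.13 times EEF1G in the untreated libraries and at 2.11 times in G418 A.

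For EEF1D the listed transcript had 137 RPKM in Untreated A (215 reads), 155 in Untreated B (392 reads) and 99.7 in G418 A (192 reads). G418 A was below both untreated libraries, with a log2 change of −0.55 against a difference of 0.17 between the untreated libraries. It was the second lowest change of the factors, and 102 of the 5684 transcripts had a change as low or lower. Because this transcript holds only 4.74% of the main CDS in frame, the value is no measure of the whole gene. EEF1D passed 1.5-fold when libraries were scaled by TMM, by median of ratios or to their CDS reads, and without Untreated A.

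EEF1E1 had 383 RPKM in Untreated A (869 reads), 275 in Untreated B (1009 reads) and 345 in G418 A (964 reads). The treated library lay between the untreated ones, which differed by 1.39-fold. TUFM had 265 RPKM in Untreated A (2072 reads), 302 in Untreated B (3815 reads) and 302 in G418 A (2906 reads), with a log2 change of 0.09 that was smaller than the difference of 0.19 between the untreated libraries. EEF2K, far lower in density, had 4.38 RPKM in Untreated A (55 reads), 5.61 in Untreated B (114 reads) and 5.23 in G418 A (81 reads), so that its treated value also lay between the untreated ones.

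**Figure D2:**
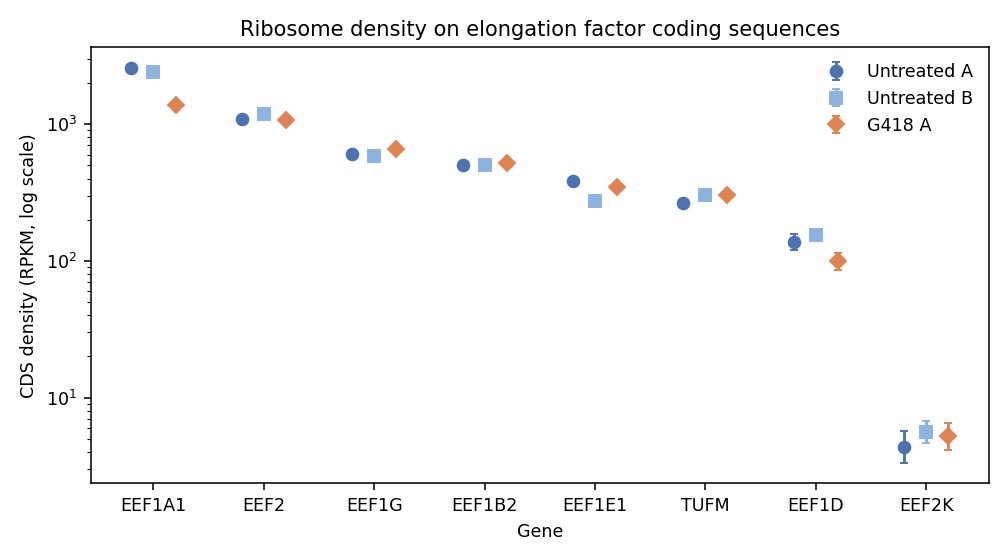
CDS density in RPKM (log axis) of the 8 listed elongation factors in each library; bars are 95% Poisson intervals of the reads and are mostly smaller than the symbols. EEF1A1 stands at 2576 and 2406 in the untreated libraries and at 1385 in G418 A, while the points of EEF2, EEF1G, EEF1B2 and TUFM lie close together.

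From the highest to the lowest untreated mean density the order was EEF1A1, EEF2, EEF1G, EEF1B2, EEF1E1, TUFM, EEF1D and EEF2K. Of the neighbours in this order, only EEF1E1 and TUFM overlapped in their range over the 3 libraries. The order was the same in G418 A. EEF1A1 made up 44.04% and 41.3% of the CDS reads on the listed factors in the untreated libraries and 29.6% in G418 A.

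Counted over the 7 factors with enough reads, none was 2-fold higher, against 1.06% of all transcripts, and none was 2-fold lower, against 0.088%. None was 1.5-fold higher, against 7.64% of all transcripts, and 1 (EEF1A1) was 1.5-fold lower, against 1.5%. In G418 A 3 factors (EEF1B2, EEF1G and TUFM) were above both untreated libraries, as were 46.3% of all transcripts, and 3 (EEF1A1, EEF1D and EEF2) were below both, as were 27.9%. TUFM counted as above by 301.66 against 301.51 RPKM, less than the counting error. The median log2 change of the 7 factors was 0.04, beside 0.07 for all transcripts, 0.18 for 58 cytosolic ribosomal proteins and 0.08 for 53 mitochondrial ribosomal proteins. Of the 58 cytosolic ribosomal proteins, none was 1.5-fold lower, and their log2 changes ranged from −0.52 (RPS28) to 0.85 (RPS27).

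**Figure D3:**
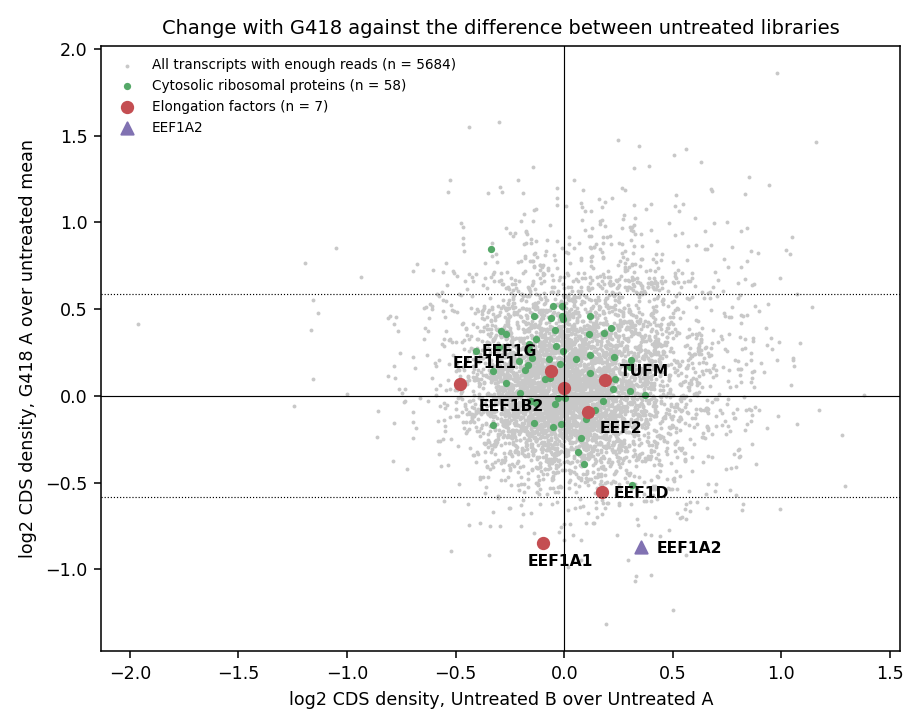
Log2 CDS density of G418 A over the untreated mean (vertical axis) against the log2 of Untreated B over Untreated A (horizontal axis) for 5684 transcripts in grey, with cytosolic ribosomal proteins in green, elongation factors in red and EEF1A2 in violet; dotted lines mark 1.5-fold. EEF1A1 and EEF1A2 lie at −0.85 and −0.87 on the vertical axis, below the ribosomal proteins, while 5 of the other factors lie between −0.09 and 0.14 and EEF1D at −0.55.

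The 5′ ends were compared because the TOP motif is shared by many mRNAs of the translation machinery. The windows run from 10 bases before to 20 after the start given by RefSeq (GRCh38.p14), on the transcribed strand, and capitals mark a C followed by at least 4 pyrimidines.
EEF1A1, chr6:73521013-73521042, minus strand: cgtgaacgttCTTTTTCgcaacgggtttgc
EEF2, chr19:3985444-3985473, minus strand: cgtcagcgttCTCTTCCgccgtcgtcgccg
TUFM, chr16:28846329-28846358, minus strand: cgccggaagtgCCTTCCagccgcaggcgcc
EEF1G, chr11:62573872-62573901, minus strand: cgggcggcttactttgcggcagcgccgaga
Of the windows shown, the run stood exactly at the start in EEF1A1 and EEF2, whose CDS densities changed by −0.85 and −0.09 (log2). Counted per gene, with any of its starts, 5 of 7 factors with a RefSeq start had such a run in the window. The same count gave 44 of 45 cytosolic ribosomal protein genes and 16 of 47 mitochondrial ribosomal protein genes. Over all RefSeq starts the share was 38.4% of 35116, counted per start and so not the same measure. In EEF2K the run lay before the start given by RefSeq, outside the mRNA. A window of EEF1B2, whose CDS density changed by 0.04, also had a run before its start. A further run in that window began exactly at the start. The EEF1G window holds no such run, which says nothing of other starts of that gene.

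The transcripts most like EEF1A1 were sought among 2407 others with on average 500 or more CDS reads, by the distance between pairs of log2 values (the untreated difference and the change with G418, over the 3 libraries). The nearest were HIST1H2BE, a histone H2B gene, at a distance of 0.140, and then EID1, ATP5MC1, TMSB10 and UQCRHL, and no transcript lay within 0.1. For EEF2, 173 transcripts lay within 0.1, the nearest being NUP85, CDCA2, PDPN, FAR1 and NDUFA8. The distance uses the same changes by which EEF1A1 ranked low and EEF2 differed little, so it is no separate support for either.

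Genes that modify or regulate the factors came from fixed lists, and of those with enough reads only EEF1A2 and DPH2 passed 1.5-fold. Of the paralogues and specialised GTPases, 6 of 7 were listed and 5 had enough reads. Beside EEF1A2 they were GUF1, a mitochondrial GTPase, with the highest log2 change (0.36, less than the 0.48 between the untreated libraries), and HBS1L, EFL1 and the spliceosomal EFTUD2, between −0.16 and 0.10. Of the enzymes that make diphthamide, the modified histidine of eEF2, or methylate eEF2, 5 of 8 were listed and only DPH2 had enough reads. DPH2 had 10.5 RPKM in Untreated A (88 reads), 10.3 in Untreated B (140 reads) and 16.5 in G418 A (171 reads), a log2 change of 0.67. Of the eEF1A lysine methyltransferases, EEF1AKNMT (0.23) and EEF1AKMT2 (0.01) had enough reads. Below the read minimum, 3 genes of the lists were over 1.5-fold higher and were chosen after their values were seen. EEF1AKMT3, an eEF1A methyltransferase, had 9, 11 and 54 CDS reads in the libraries A and B without drug and the one with G418, EIF5A2, a paralogue of EIF5A, had 70, 110 and 130, and the S6 kinase gene RPS6KB2 had 36, 64 and 122.

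EIF5A, whose product carries hypusine and helps the ribosome past difficult peptide bonds, had a log2 change of 0.14, and DHPS, which starts hypusine synthesis, −0.07. Of the genes for the scaffold of the multisynthetase complex and valyl-tRNA synthetase, VARS was lowest at −0.35 and AIMP2 highest at 0.06. Of 8 EEF2K regulators with enough reads, 3 were below both untreated libraries and 1 above, and the highest log2 change was 0.07, of the kinase gene RPS6KA3. Of 4 genes of mitochondrial initiation and recycling with enough reads, MTRF1L, a release factor gene, was highest at 0.46 and MTFMT, which formylates the initiator tRNA, lowest at −0.09.

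Readthrough was read from the ribosome readthrough score (RRTS), the density from the normal stop codon to the next stop codon in frame (the 3′TC) over the density of the CDS, given here in percent. The first 6 nt of the region are left out. Intervals are 95% exact Poisson intervals of the readthrough reads and cover counting error only. Of the 7 factors with enough reads, 4 had an RRTS above 0 in Untreated A (24% of all transcripts) and the same number in Untreated B (22.3%), and 6 had one in G418 A (75.8%). An RRTS above 0 needs only 1 read, so transcripts with many reads reach it more readily, whatever their readthrough. Of 58 cytosolic ribosomal proteins, 36 had one in Untreated A and 37 in Untreated B. In 6 of the 7 the RRTS in G418 A was above both untreated libraries, against 72% of all transcripts.

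EEF1A1, with the signal UGAA, gave the most readthrough reads. Its RRTS was 0.345% in Untreated A (10 reads), 0.639% in Untreated B (28 reads) and 15.01% in G418 A (288 reads, 13.3 to 16.9%), 30.5-fold over the untreated mean of 0.492 ± 0.208% (SD, n = 2). The reads in the region themselves numbered 1.71 and 2.95 RPM in the untreated libraries and 39.9 RPM in G418 A, so that the region itself held more RPFs. The median of 788 transcripts with that signal was 29.8% in G418 A, with quartiles at 9.65 and 59.7%. Thus EEF1A1 was below the median of its signal and within the quartiles, and 249 of the 788 were at or below it. All windows of 28 nt in the EEF1A1 region have exact copies elsewhere in the genome.

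EEF1G carries the same UGAA signal. Its RRTS was 5.63% in Untreated A (3 reads), 1.21% in Untreated B (1 read) and 32.4% in G418 A (23 reads, 20.5 to 48.6%), close to the median of its signal. Only 15 nt are counted in this region, and the untreated values rest on 4 reads.

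EEF2, with UAGG, had an RRTS of 0.721% in Untreated A (5 reads), 0.330% in Untreated B (4 reads) and 13.9% in G418 A (116 reads, 11.5 to 16.7%). It was 26.5-fold over the untreated mean of 0.526 ± 0.276% (SD, n = 2) and near the median of 338 UAGG transcripts, 13.4%. No part of its CDS or region is repeated in the genome at this length. EEF1A1 and EEF2 thus had nearly equal RRTS in G418 A, with overlapping intervals, although the medians of their signals differed.

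EEF1B2, with UAAA, had an RRTS of 2.83% in Untreated A (2 reads), 6.14% in Untreated B (7 reads) and 8.92% in G418 A (8 reads, 3.85 to 17.6%). The intervals of the libraries overlapped, and a difference was not detectable at this depth. The median of 662 UAAA transcripts was 7.69% in G418 A.

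TUFM, with UGAG, had no readthrough read in either untreated library and 17 in G418 A, an RRTS of 26.0% (15.2 to 41.7%). A floor of 3 reads would give 6.44% in Untreated A and 3.50% in Untreated B. The G418 A value was 4.04 times the higher floor, a ratio without the counting error of G418 A and so no lower bound. The Poisson intervals of TUFM reached up to 7.92% in Untreated A and 4.30% in Untreated B, below the lower end of 15.2% in G418 A. EEF1D, also UGAG, had none in the untreated libraries and 10 in G418 A, 27.3% (13.1 to 50.1%). The G418 A value was 3.73 times the floor of 7.31% in Untreated A, which again is no lower bound. The EEF1D intervals reached up to 8.98% in Untreated A and 4.93% in Untreated B, below the lower end of 13.1% in G418 A. The listed EEF1D transcript has no further stop codon in frame, so its region runs to the end of the 3′UTR. Which of the 2 neighbouring stop codons of EEF1D had been passed could not be told apart. UGAG is the signal of the listed transcript and need not be the one that was passed. The median of 1054 UGAG transcripts was 19.9%.

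EEF1E1 had none. No RPF fell in its readthrough region in any library, although 155, 180 and 172 reads (Untreated A, then B, then G418 A) would have stood there at the density of the CDS. In G418 A the floor of 3 reads was 1.75% and the upper end of the Poisson interval was 2.15%. The median of 328 UAAC transcripts in that library was 18.3%. The region lies behind a stop codon that the main isoform lacks, and the share of ribosomes on the listed isoform is not known. EEF2K also had no read there, but fewer than 2 reads would have been present at its CDS density, so that nothing can be read from it.

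**Figure D4:**
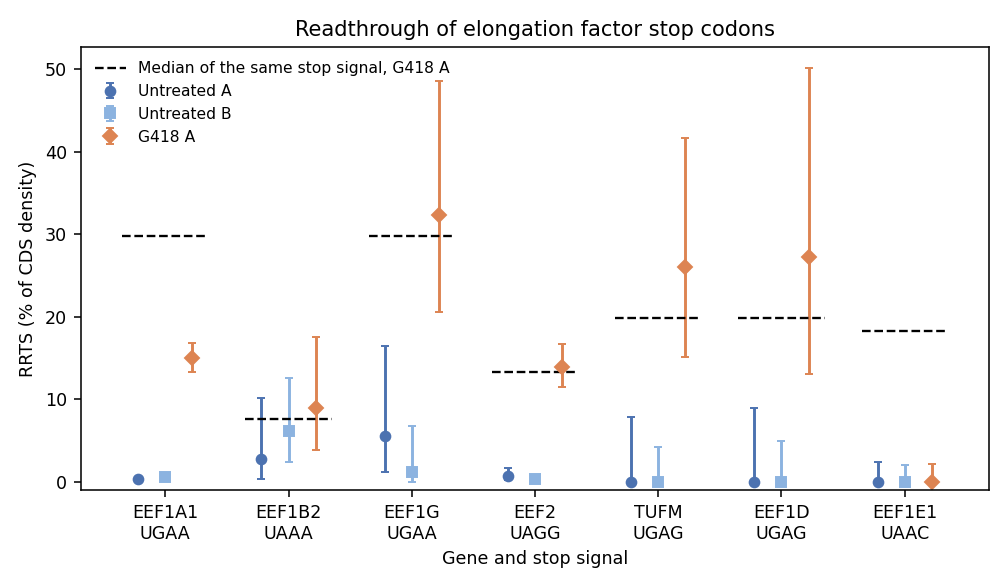
RRTS in percent of CDS density (vertical axis) for 7 factors with the stop signals of their listed transcripts. Points are libraries, and bars are 95% Poisson intervals of the readthrough reads. Dashed lines mark the median of all transcripts with the same signal in G418 A. EEF1A1 at 15.01% lies below its line at 29.8%, EEF2 at 13.9% lies near its line, and EEF1E1 stays at 0.

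Pooled over the 7 factors, readthrough was 0.505% in Untreated A (20 reads), 0.653% in Untreated B (40 reads) and 14.5% in G418 A (462 reads), 25.04-fold over the untreated mean. Over all transcripts it was 1.57, 1.25 and 21.3% in the same order, or 15.2-fold. The fold of the factors stands over a lower untreated mean, 0.579% against 1.41%. Their value in G418 A was below that of all transcripts. EEF1A1 gave most of the reads, and without it the factors had 0.943, 0.687 and 13.7%, or 16.9-fold. Cytosolic ribosomal proteins, pooled, had 0.960, 0.762 and 10.6% (12.3-fold), and mitochondrial ribosomal proteins 1.76, 1.19 and 25.3% (17.1-fold).

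Not all genes of the lists that had at least 10 readthrough reads in G418 A are named here. Among genes with that many reads, EFTUD2 had the highest RRTS of its list, 21.0% (62 reads), and EIF5A that of its own, 18.6% (113 reads). EEF1A2, with UGAA like EEF1A1, had 20.7% from 18 reads, against 2.64% in Untreated A (3 reads) and 1.70% in Untreated B (4 reads).

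Past the 3′TC the factors differed. In G418 A, 288 of the 292 RPFs in the 3′UTR of EEF1A1 lay before the end of the 3′TC, a UAAG signal 198 nt downstream, and 4 lay after it. The density after the 3′TC was 0.0293 times that before it, near the 0.0392 times found over 5236 transcripts with at least 30 nt left after the 3′TC. TUFM, with 8 of 25 RPFs after its 3′TC, had 0.0267 times. EEF2, with a UGAG signal 114 nt downstream, had 57 of 173 RPFs after it, 0.138 times the density before and 1.93% of the CDS density (1.46 to 2.49%).

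Among EEF1A1, EEF2, TUFM and EEF1G, EEF1G had the highest density after the 3′TC, but over the shortest stretch. That stretch was 62 nt for EEF1G, 91 nt for EEF1A1, 384 nt for EEF2 and 528 nt for TUFM. The part of these unlike lengths in the difference was not tested. Counted from the normal stop codon, the in-frame stop codon after the 3′TC ends at 213 nt in EEF1A1, 162 nt in EEF2 and 48 nt in TUFM. Of the 60 RPFs in the 3′UTR of EEF1G, 37 lay after the 3′TC, at 12.6% of the CDS density (8.88 to 17.4%). This was 0.389 times the density before. Its 3′TC, a UAGC signal, ends 21 nt after the normal stop codon, and a further stop codon in frame ends at 60 nt. The sequence around the 3′TC, in capitals, is shown because RPFs continued past it.
EEF1G 3′TC, chr11:62559646-62559675, minus strand: tctcttgccatcaccTAGctgcctgcacct
In the untreated libraries EEF1G had 0 and 3 RPFs after the 3′TC. Of the CDS windows of EEF1G 85.9% are repeated in the genome, and the part of copies in these reads was not tested.

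**Figure D5:**
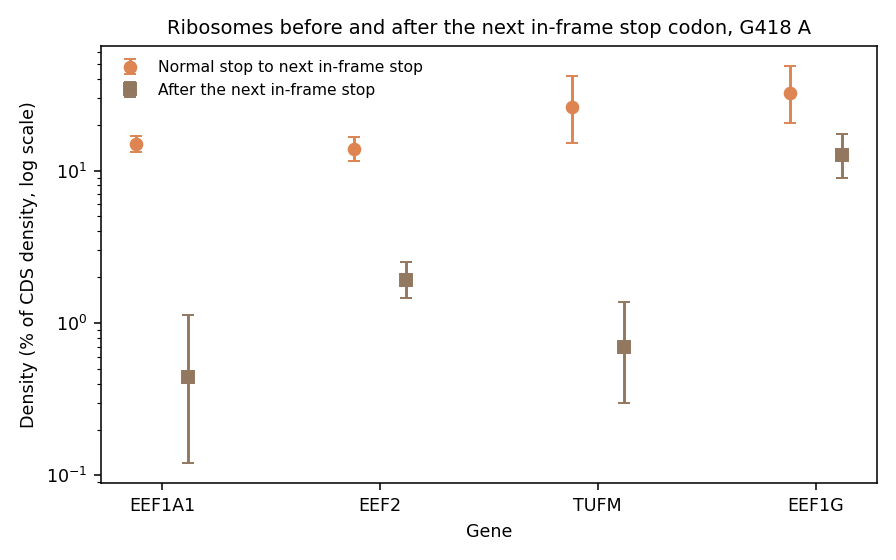
Density in percent of CDS density (log axis) in G418 A between the normal stop codon and the end of the next in-frame stop codon (circles) and after it (squares), with 95% Poisson intervals. The gap is widest for EEF1A1 and TUFM and narrowest for EEF1G, at 32.4% before and 12.6% after. The stretch after the next in-frame stop codon is 62 nt for EEF1G, 91 nt for EEF1A1, 384 nt for EEF2 and 528 nt for TUFM.

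In the 5′UTR, RPFs stood at 2.47, 3.01 and 3.18% of the CDS density for EEF1A1, in the order Untreated A, Untreated B, G418 A. For EEF2 the values were 13.1, 10.3 and 6.401% (65, 89 and 38 reads), the lowest of them in G418 A. EEF1B2 had 6.48, 7.34 and 7.05%. The listed transcripts of EEF1A1 and EEF1B2 have the CDS of the main isoform but are other transcripts of those genes. Their 5′UTRs, of 239 and 152 nt, need not be the ones that ribosomes were on, which was not tested. Over all transcripts 5′UTR density was 11.3, 12.2 and 10.2% of CDS density. EEF2K had more ribosomes on its 5′UTR relative to its CDS than the other factors, 24.8, 199 and 112%, but from only 3, 50 and 20 reads, and the untreated libraries differed most.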

How the data were processed

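The members and gene lists were chosen with earlier results of these data known. Groups came from the treatment labels. According to the study's methods, the authors collapsed duplicate reads by molecular identifier, trimmed linkers, aligned reads with STAR to hg38 with GENCODE 30, kept 1 primary alignment of reads that matched several places, and assigned fragments of 28 to 35 nt to A sites on 1 transcript per gene, with the ends of the CDS left out. The submitters' processing notes also name CASAVA 1.8. The authors deposited RPM values, RPKM densities, whole-number counts, and ratio columns (RRTS and 3′UTR occupancy). Dividing RPM by the value of 1 read gave whole reads throughout (tolerance 0.05). The deposited CDS counts were 1 lower than these for 9080 of 9099 transcripts in Untreated A, 283 of 9311 in Untreated B and 72 of 9370 in G418 A.

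Changes are the log2 of the deposited density in G418 A over the mean of the untreated libraries, for transcripts whose CDS reads averaged 128 or more over the libraries. Called means past 2-fold or 1.5-fold, or outside both untreated libraries. Exact Poisson intervals at 95% and a floor of 3 reads cover counting error only. Pooled RRTS is the sum of readthrough reads over the sum of those expected at CDS density. Isoforms, stop codons and repeated 28-nt windows were read from hg38 with GENCODE 44, and 5′ ends from RefSeq. Lengths and stop signals in the files matched this annotation, except an untranslated end of EEF1A1 and the region of EEF1D, which differed by a few bases. Named genes were all members, then from each list those past 1.5-fold and outside both untreated libraries, the highest and lowest change, and the highest RRTS in G418 A from at least 10 reads, and for EEF1A1 and EEF2 the 5 nearest patterns. One gene that this rule names is not reported here. The calculation of changes and intervals was tested on simulated counts. Python 3.11.15, pandas 2.3.3, numpy 2.4.6, scipy 1.17.1 and matplotlib 3.10.9 were used, with edgeR 4.0.16 in R 4.3.3 for TMM factors only.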

Additional observations from a re-analysis of the deposited data

How the results depend on the processing

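No paired analysis was possible because no result came from a test and the G418 group had 1 library. Beside TMM and median-of-ratios scaling, scaling to CDS reads on listed transcripts was chosen after seeing the data. Under each of these 3 scalings EEF1D passed 1.5-fold, so that 2 factors were 1.5-fold lower. Under TMM and median-of-ratios scaling 1 factor was above both untreated libraries, and 2.29% and 2.36% of all transcripts were 1.5-fold lower. Leaving out an untreated library gave 1 to 2 factors and 1.41 to 2.67% of all transcripts that were 1.5-fold lower, and a median change of −0.038 to 0.00072 for the factors. With a mean of at least 20 reads 12.7% of all transcripts were 1.5-fold higher and 3.00% lower, with no minimum 13.0% and 3.61%, and with at least 500 reads 2.91% were higher. The change of EEF1A1 ran from −0.92 to −0.80 and that of EEF2 from −0.17 to −0.04 over all settings, while EEF1B2 ran from −0.03 to 0.05. Pooled readthrough of the factors was 13.9 percentage points higher in G418 A. The difference was 14.7 as a median RRTS, 12.9 without EEF1A1, 13.3 with regions of at least 60 nt, and 14.6 for the 5 factors whose stop codon is that of the main isoform, a set chosen after seeing the data. Over the whole 3′UTR the difference was 9.98 percentage points for EEF1A1, 4.31 for EEF2, 15.4 for EEF1G and 1.90 for TUFM. The cause was not tested, beyond the longer stretch averaged. Depth limits EEF2K, EEF1D and all untreated RRTS values.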
